A study of Mus musculus with 15 samples.

Results

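DNA replication and mitosis genes were followed in preSertoli cells of the mouse fetal testis, using a fixed list of 46 gene symbols looked up by name in the deposited RNA-seq table. Of these, 45 had a row among the 27697 symbols of the table, and the RNA level of Plk1, the polo-like kinase of mitosis, was not analysed here, although its promoter was. By function, 23 members act in DNA replication, 21 (20 with a row) in mitosis, and 2, Ccne1 and E2f1, at the step from G1 to S phase. The study mapped regulatory elements in preSertoli cells. It holds 15 mouse samples, of which 8 are DNase-seq libraries, 2 are H3K27ac ChIP-seq libraries, 2 are their inputs and 3 are the RNA-seq libraries used here. The RNA came from E15.5 testes of C57BL/6J x CD-1 F1 embryos. Cells were purified by flow cytometry from about 165 embryos and divided into 3 pools, which the labels call independent biological replicates, and a single lane gave 50 bp reads of poly-A RNA. The RNA labels name neither a reporter nor a genotype, whereas the DNase-seq labels describe Sox9-ECFP heterozygous male embryos. There is 1 RNA group, with no other stage, sex or cell type beside it, so no differential test was possible and every value below is a description of 3 libraries.

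PreSertoli cells are the somatic cells that enclose the germ cells in the testis cords, and they divide during fetal life and stop dividing after birth. A cell copies its DNA in S phase. The MCM helicase is loaded on DNA before S phase by Cdc6 and Cdt1, is switched on with the help of GINS, and is followed by polymerases held by the PCNA clamp. In mitosis CDK1 and its cyclins, the Aurora kinases and the spindle checkpoint drive and supervise chromosome separation. Transcripts of both groups are made mainly in cycling cells. In a bulk sample, fewer cycling cells and less RNA per cell cannot be told apart.

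The 3 libraries, called 1, 2 and 3 after their columns, held 47.8, 56.0 and 51.7 M expected counts (M, 1e6 counts), and levels are given as CPM, the share of a library's expected counts scaled to 1e6. CPM is not divided by transcript length, which was not used here, so a larger value for one gene than for another does not show more transcripts. Sertoli cell markers matched the label, and all 13 reached 10 CPM in every library, among them Sox9 (278, 283 and 217 CPM), the master regulator of Sertoli cell fate, and Amh (2167, 2660.0 and 1319 CPM), the hormone that removes the female ducts. Markers of fetal Leydig cells, the steroid-producing cells outside the cords, were also present. Of these, 7 of 8 reached 10 CPM in every library, against 34.7% of all symbols. Among them were Cyp17a1 (677, 819.7 and 531 CPM) and Cyp11a1 (388, 466 and 289 CPM), and the marker that failed was Hsd3b6. A level of 1 CPM in every library was reached by 10 of 13 germ cell and 6 of 7 interstitial and peritubular markers. It was also reached by 4 of 8 endothelial, 3 of 7 granulosa and 2 of 6 blood markers, against 47.1% of all symbols. The 3 granulosa markers were Esr2 (4.33, 5.07 and 4.46 CPM), Wnt4 (1.61, 2.16 and 1.01 CPM) and Rspo1 (1.28, 1.59 and 1.30 CPM). Foxl2, the defining factor of granulosa cells, was the lowest of the 7, with 0.0419, 0.125 and 0.0387 CPM.

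All 45 measured members were expressed, that is, they reached 1 CPM in all 3 libraries, against 47.1% of all symbols in the table. At 5 CPM all 45 still passed, against 39.1% of all symbols. At 10 CPM 44 of 45 passed, against 34.7% of all symbols, at 50 CPM 35 passed, against 16.9%, and at 100 CPM 22 passed, against 8.53%. Ccne1 was the member below 10 CPM. Together the members took 6467, 6157 and 6513 CPM in libraries 1, 2 and 3. The coefficient of variation (CV, SD divided by mean) over the 3 libraries had a median of 6.39% for the members and 6.75% for all 13036 expressed symbols. A CV of 10% or more was found in 6 of the 45 members (Cdt1, Gmnn, Aurka, Gins2, Rfc4 and Rfc2), against 26.7% of the expressed symbols. The median level was 103 CPM for the members and 32.7 CPM for the expressed symbols. No share at matched level was taken, so the lower share does not show that the members are steadier. The lowest counts behind a member were those of Ccne1, with 309, 353 and 364 expected counts.

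**Figure D1:**
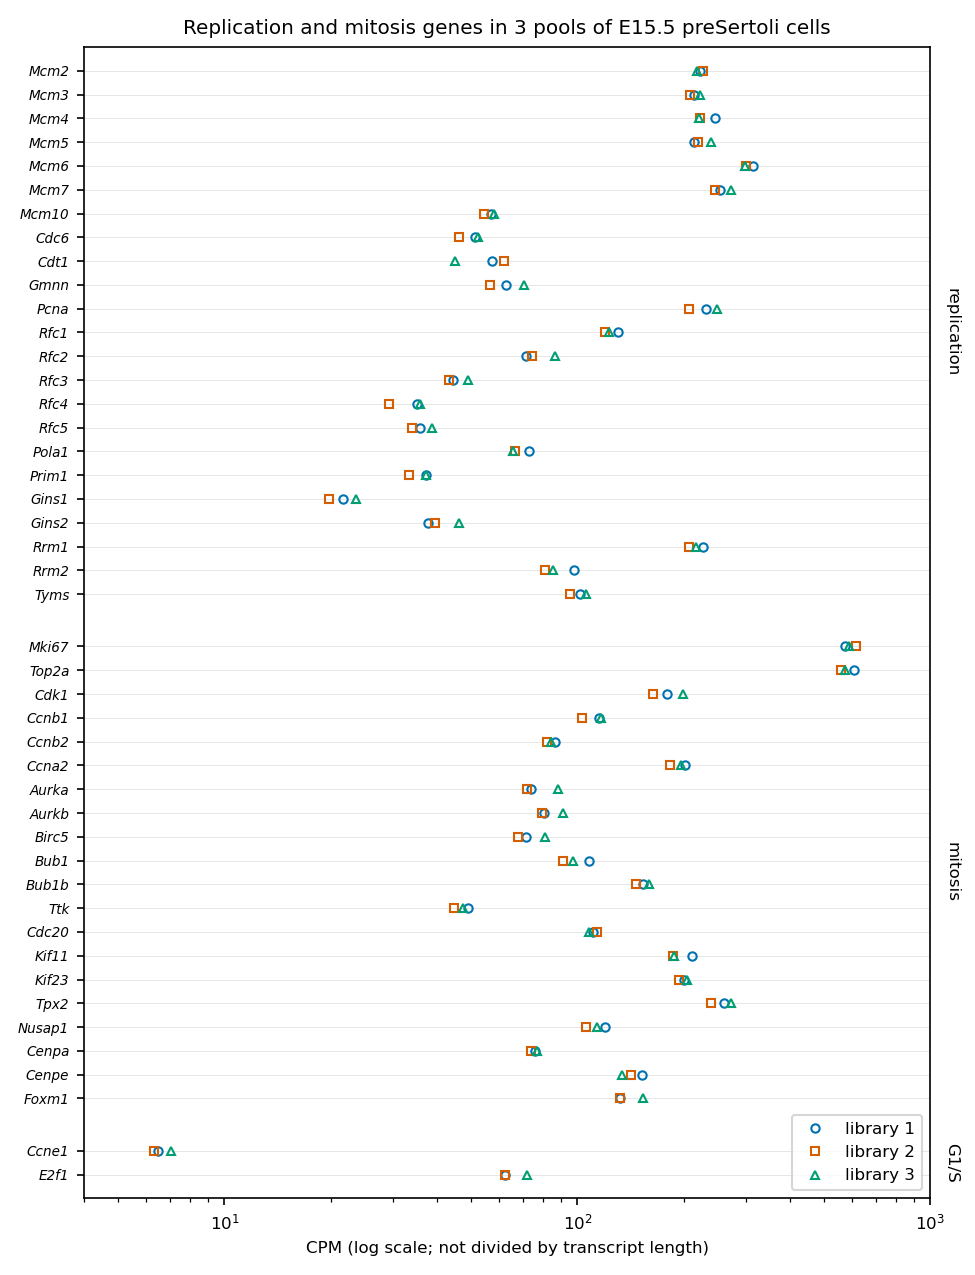
Level of each of the 45 measured members in libraries 1, 2 and 3 (points), in CPM on a log axis, with replication genes above, mitosis genes below them and the G1/S regulators at the bottom. Points of a gene lie close together, with CVs from 2.00% for Mcm2 to 16.1% for Cdt1, and Ccne1 is the member below 10 CPM.

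Replication genes were expressed throughout the pathway, from helicase loading to nucleotide supply. The 6 subunits of the MCM helicase ring, Mcm2 to Mcm7, had mean levels from 304 CPM for Mcm6 down to 215 ± 6.73 CPM (SD, n = 3) for Mcm3. Mcm2 had 223, 227 and 218 CPM in libraries 1, 2 and 3, the smallest spread of any member, and Mcm6 had 314, 299.8 and 299 CPM. Mcm4 (246, 223 and 221 CPM) was highest in library 1, whereas Mcm5 (214, 219 and 239 CPM) and Mcm7 (254, 245 and 272 CPM) were highest in library 3. Mcm10, which helps to start the loaded helicase, had 57.0, 54.2 and 58.2 CPM.

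Among the factors that load the helicase, Cdt1 and its inhibitor Gmnn varied most and departed in opposite directions in libraries 2 and 3. Cdc6, an ATPase that recruits the helicase to origins, had 51.4, 46.3 and 52.2 CPM. Cdt1, its loading partner, had 57.4, 62.1 and 45.0 CPM and so was lowest in library 3, with a CV of 16.1%, the highest among the members. Gmnn encodes geminin, the protein that binds Cdt1 and blocks loading, and with 62.6, 56.7 and 70.7 CPM it was highest in library 3 and lowest in library 2. The ratio of Cdt1 to Gmnn within a library was 0.916 in library 1, 1.10 in library 2 and 0.637 in library 3, a range of 1.72-fold. By comparison the ratio of Ccnb1 to Cdk1, a cyclin and its kinase, ranged over 1.09-fold, and that of Rrm2 to Rrm1, the small and large subunits of ribonucleotide reductase, over 1.10-fold. These 3 pairs were chosen after their values were seen.

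At the replication fork, the sliding clamp gene Pcna had 232, 207 and 248 CPM, with library 3 highest and library 2 lowest. The 5 clamp loader genes place this clamp on DNA, and their means ran from 124 ± 5.20 CPM for Rfc1, the large subunit, to 33.4 ± 3.52 CPM for Rfc4 (SD, n = 3 each). Rfc2 had 71.5, 74.3 and 86.3 CPM, Rfc3 had 44.4, 43.3 and 48.9 CPM and Rfc5 had 35.7, 33.9 and 38.8 CPM, and library 3 was highest for each of them. Pola1, the catalytic subunit of the polymerase that makes the first stretch of DNA, had 72.8, 66.5 and 65.7 CPM. Its partner Prim1, the primase that lays down the RNA primer, had 37.2, 33.3 and 37.2 CPM. Of the GINS subunits that complete the active helicase, Gins1 had 21.7, 19.7 and 23.5 CPM, and Gins2 had 37.6, 39.5 and 46.1 CPM.

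Genes of nucleotide supply completed the replication set. Rrm1 had 227, 207 and 217 CPM and Rrm2 had 97.6, 80.7 and 85.4 CPM in libraries 1, 2 and 3, with library 1 highest and library 2 lowest for both. Tyms, thymidylate synthase, had 102, 95.4 and 106 CPM and was highest in library 3.

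Mitosis genes were all expressed, and their median CV over the 3 libraries was 6.52%, beside 6.24% for the replication genes. Mki67, whose protein Ki-67 coats mitotic chromosomes and is the common marker of cycling cells, had 572, 617 and 589 CPM in libraries 1, 2 and 3. Top2a, the topoisomerase that untangles sister chromatids, had 608, 559 and 573 CPM. Mki67 was highest in library 2 and Top2a lowest there. The mitotic kinase gene Cdk1 had 179, 164 and 199 CPM, with library 3 highest. Its cyclin partners Ccnb1 (115, 103 and 117 CPM), Ccnb2 (86.5, 81.8 and 84.4 CPM) and Ccna2 (202, 183 and 196 CPM), the last of which also acts in S phase, were all lowest in library 2.

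The Aurora kinase genes and the gene of survivin had their highest level in library 3. Aurka, the kinase of the spindle poles, had 73.7, 72.1 and 87.9 CPM. Aurkb had 80.6, 79.2 and 91.1 CPM, and Birc5, or survivin, which acts with it in the chromosomal passenger complex, had 71.5, 67.9 and 81.1 CPM. Libraries 1 and 2 differed little from each other in these 3 genes, and library 3 stood above both.

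Spindle checkpoint genes did not share that order. Bub1 (108, 91.2 and 97.2 CPM) and Ttk (48.9, 44.8 and 47.4 CPM), both checkpoint kinases, were highest in library 1, whereas Bub1b (154, 147 and 159 CPM), which encodes BubR1, was highest in library 3. Cdc20 activates the anaphase-promoting complex, which the checkpoint restrains, and with 111, 114 and 108 CPM it was highest in library 2. It was one of 4 members highest there, with Cdt1, Mcm2 and Mki67, against 30.2% of the expressed symbols. Library 3 was the highest for 26 of the 45 members, against 35.1%, and library 1 for 15, against 34.6%.

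Among genes of the spindle itself, Kif11, the motor that pushes the poles apart, had 211, 187 and 188 CPM, and Kif23, a motor of the central spindle needed for cell division, had 201, 194 and 205 CPM. Tpx2, which activates Aurora A on the spindle, had 261, 239 and 273 CPM, and the microtubule-binding gene Nusap1 had 120.1, 106 and 114 CPM. All 4 were lowest in library 2. At the centromere, the histone H3 variant gene Cenpa had 75.7, 73.8 and 76.9 CPM and the kinetochore motor gene Cenpe had 153, 142 and 133 CPM. Foxm1, a transcription factor that switches on genes of G2 and mitosis, had 132, 132 and 153 CPM and was highest in library 3.

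Of the G1/S regulators, E2f1 lay within the range of the other members and Ccne1 below all of them. E2f1, a transcription factor that switches on replication genes, had 62.2, 62.5 and 71.8 CPM. Ccne1, the cyclin that pairs with CDK2 at the start of S phase, had 6.47, 6.30 and 7.04 CPM, the lowest value of any member in every library. Its relative Ccne2 had 19.0, 17.1 and 18.5 CPM. These values are reads and not per length, so the low value of Ccne1 is one of reads.

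Genes of the same pathways outside the list were expressed as well. All 52 other replication genes reached 1 CPM in all 3 libraries, and their list median was 59.5 ± 2.37 CPM (SD, n = 3). Nasp, a chaperone of histones (322, 297 and 318 CPM), Topbp1, which takes part in starting replication (297, 272 and 279 CPM), and Uhrf1, which couples replication to DNA methylation (234, 227 and 247 CPM), were the highest. Pold4 (4.61, 4.48 and 4.95 CPM), a small subunit of polymerase delta, Orc1 (14.3, 12.3 and 13.9 CPM) and Dscc1 (18.5, 16.1 and 16.7 CPM) were the lowest. Of 58 other mitosis genes 57 had a row, and each was expressed. The median of that list was 81.8 ± 6.09 CPM (SD, n = 3). Their highest were Ckap5, a microtubule polymerase (370.3, 331 and 304 CPM, listed under an older symbol), the condensin subunit gene Ncapd2 (248, 264 and 284 CPM) and Prc1, which bundles central spindle microtubules (264, 239.7 and 265 CPM). Their lowest were the centromere gene Cenpk (18.6, 14.3 and 15.8 CPM, also under an older symbol) and the CDK-activating phosphatase genes Cdc25b (20.7, 23.0 and 23.6 CPM) and Cdc25c (23.6, 23.0 and 25.7 CPM).

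Regulators of these pathways were present too. They comprise the E2F factors, the pocket proteins related to RB and the MuvB core, which with E2F and pocket proteins forms the DREAM repressor of cell cycle genes. All 19 reached 1 CPM in all 3 libraries, and their median was 39.0 ± 3.40 CPM (SD, n = 3). Rbbp4, a histone-binding protein shared by several chromatin complexes, had 519.7, 472 and 523 CPM. E2f6, a repressor of the family, had 153, 143 and 146 CPM, and the E2F partner Tfdp2 had 115, 108 and 113 CPM. At the low end were the MuvB subunit gene Lin52 (15.7, 15.1 and 15.1 CPM), E2f2 (15.3, 15.6 and 17.9 CPM) and Ccne2.

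In reads, the median replication gene lay below the median mitosis gene in each library. The replication median was 72.8, 74.3 and 85.4 CPM in libraries 1, 2 and 3, against a mitosis median of 126, 123 and 125 CPM. The middle replication gene was Pola1 in library 1, Rfc2 in library 2 and Rrm2 in library 3. The rise of that median, which enters the difference below, is thus partly a change of middle gene. On the scale of log2(CPM + 1) the difference, replication minus mitosis, was -0.78, -0.71 and -0.54, with a mean of -0.68 ± 0.12 (SD, n = 3). The direction was the same in all 3 libraries. No test was made. Because transcript length enters these values and the members are not replicates, the difference does not show fewer replication transcripts. The ranges of the sets overlapped, with mean levels from 21.6 to 304 CPM among replication genes and from 47.1 to 593 CPM among mitosis genes. The difference moved to -0.50 with Ccna2 counted as a replication gene and to -0.56 without Mki67 and Top2a.

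A comparison that does not depend on length sets each gene against its own mean over the 3 libraries. By this measure library 2 was the low one for both sets, whereas the replication median in reads was lowest in library 1. Of the 45 members 33 had their lowest CPM in library 2, against 32.4% of the expressed symbols: 15 of 23 replication genes, 17 of 20 mitosis genes and Ccne1. The lowest library was library 1 for 5 members, against 30.1% of the expressed symbols, and library 3 for 7, against 37.5%. The shift was small. The median log2 deviation from the gene's mean was 0.01, -0.07 and 0.06 in libraries 1, 2 and 3 for replication genes, 0.01, -0.07 and 0.03 for mitosis genes and 0.01, -0.01 and -0.01 for all expressed symbols. Replication and mitosis genes had their low library in common. In library 3 the replication median lay farther above its mean than the mitosis median. Each library is a single pool, so these shifts have no replicate of their own and no test was made.

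**Figure D2:**
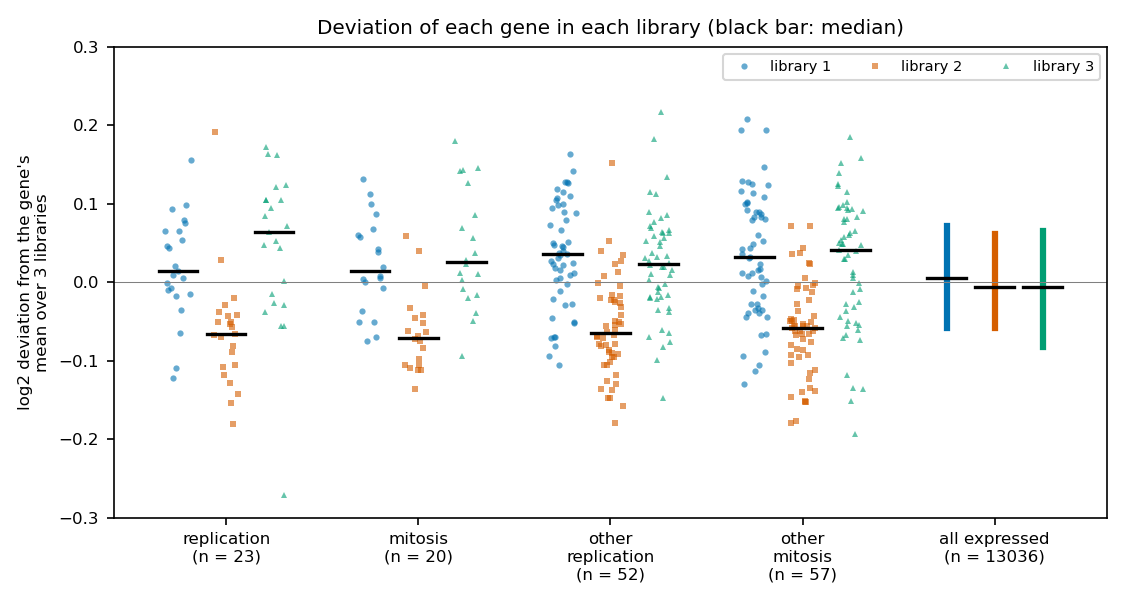
Log2 deviation of each gene from its own mean over the 3 libraries, for members by set, for the other genes of each pathway and for all expressed symbols (coloured bars: middle 50% of symbols). Black bars are medians, and in library 2 they lie at -0.07 for replication and for mitosis genes, at -0.07 for other replication and -0.06 for other mitosis genes, and at -0.01 for all expressed symbols.

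The other genes of both pathways had the same low library. Of the other replication genes 35 of 52 were lowest in library 2, and of the other mitosis genes 34 of 57, against 32.4% of the expressed symbols. Their median log2 deviations in libraries 1, 2 and 3 were 0.04, -0.07 and 0.02 for the replication list and 0.03, -0.06 and 0.04 for the mitosis list. Among the regulators 12 of 19 were lowest there, against the same 32.4%. The summed level of the replication genes was 2836, 2692 and 2859 CPM and that of the mitosis genes 3563, 3396 and 3575 CPM, so library 2 stood at 96.3% of the mean over the libraries for replication and at 96.7% for mitosis genes.

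Markers of several other cell types also differed between these libraries, most of them by more than the members. Summed over 8 fetal Leydig markers the level was 1737, 2071 and 1258 CPM, highest in library 2, with the steroidogenic enzyme gene Cyp17a1 at 677, 819.7 and 531 CPM. One of them, Hsd3b6, was near 0 in every library. The 7 interstitial and peritubular markers summed to 84.9, 98.4 and 60.0 CPM and the 6 blood markers to 23.4, 35.2 and 23.4 CPM, again highest in library 2. The germ cell sum ran the other way: the 13 markers summed to 82.5, 62.7 and 68.9 CPM, lowest in library 2. Of the 13, 10 were lowest in library 2, against 32.4% of the expressed symbols, among them Ddx4 (15.2, 10.1 and 11.5 CPM). Kit was highest there (7.33, 8.34 and 5.28 CPM). The 8 endothelial markers summed to 34.9, 35.0 and 32.8 CPM, the 7 granulosa markers to 8.38, 10.1 and 7.55 CPM and the 13 Sertoli markers to 9630.2, 10308 and 9290.1 CPM. The order of the Sertoli sum rested on single genes with many reads. Without Amh the other 12 markers summed to 7464, 7648 and 7971 CPM, highest in library 3. Clu was the largest part of that sum, at 2980, 3069 and 3467 CPM. Without Clu but with Amh the sum was 6650, 7239 and 5823 CPM, highest in library 2. A sum without both was not made. The median log2 deviation of the 13 was 0.01, 0.00 and 0.01, and 7 of them were highest in library 3. Leaving out any 1 marker, a check added after the values were seen, kept library 2 highest for the Leydig, interstitial, blood and granulosa sums and lowest for the germ cell sum. The part of other cells in the levels and shifts of the replication and mitosis genes was not tested.

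**Figure D3:**
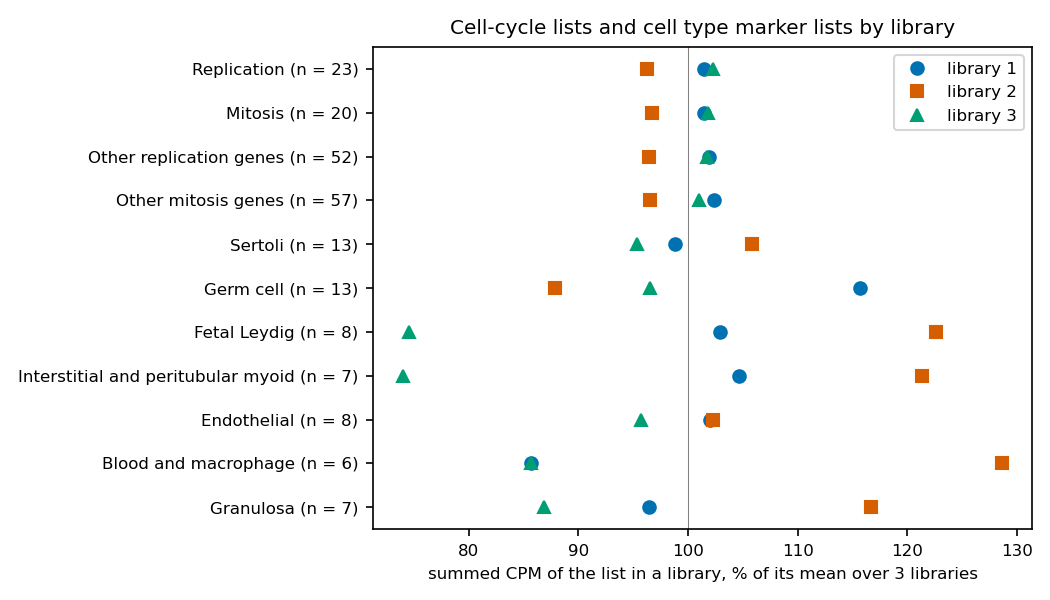
Summed CPM of each list in each library, as a percentage of the list's mean over the 3 libraries. Library 2 (squares) lies at 96.3% for replication and 96.7% for mitosis genes, at 87.8% for germ cell markers and at 123% for fetal Leydig markers.

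The promoters of the members were searched for the 3 sequence elements best known from cell cycle genes. E2F sites bind E2F factors and are known from replication genes. The cell cycle genes homology region, or CHR, binds the MuvB core and is known from mitosis genes, often next to CCAAT boxes that bind the factor NF-Y. Exact matches on both strands were taken in RefSeq windows (GRCm38.p6) from 250 bases before to 50 bases after the gene start. The words were TTTCCCGC, TTTGGCGC, TTTCGCGC and TTTGCCGC for E2F, TTTGAA and TTCGAA for CHR, and CCAAT. The words of E2F can overlap on opposite strands, as in Mcm6, where a single stretch counts as a pair of matches. Windows were found for 37 of the 46 members. Mcm7 had another window as well, and a match in either counted. Mcm4, Gmnn, Rfc2, Gins1, Gins2, Ccna2, Aurkb, Tpx2 and Foxm1 had none.

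The sets held different elements. An E2F word was found in 8 of 18 replication genes (44.4%) and in 1 of 17 mitosis genes (5.88%), Cdk1, against 4.87% of 8692 genes expressed in these cells and 2.60% of all 27025 genes of the table. A CHR word was found in 3 of 18 replication genes (16.7%) and in 13 of 17 mitosis genes (76.5%), against 16.0% of expressed genes and 21.7% of all genes. CCAAT was found in 13 of 18 replication genes (72.2%) and 15 of 17 mitosis genes (88.2%), against 43.4% of expressed genes and 41.1% of all genes. All 13 mitosis genes with a CHR word also held CCAAT, a combination found in 8.06% of expressed genes and 9.65% of all genes. A match is a run of letters and not a measured binding site, and no match says only that these letters are not in the window.

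**Figure D4:**
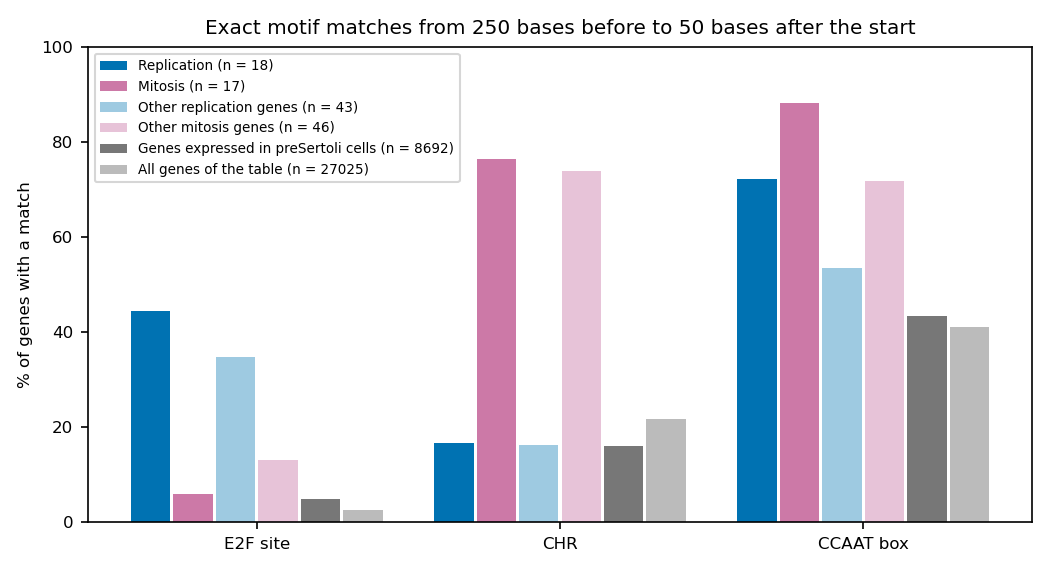
Percentage of genes with an exact match to the E2F, CHR or CCAAT words in the promoter window, for replication genes, mitosis genes, the other genes of each pathway, expressed genes and all genes. E2F words are found in 44.4% of replication and 5.88% of mitosis genes, and CHR words in 16.7% of replication and 76.5% of mitosis genes.

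The replication genes with an E2F word were Mcm3, Mcm5, Mcm6, Mcm7, Cdc6, Cdt1, Rfc3 and Pola1. Those with a CHR word were Mcm2, Mcm7 and Rfc3. In the mitosis set Ccnb1, Birc5, Nusap1 and Cenpe had no CHR word. Of the 13 mitosis genes that had one, 12 had a match after the start or within the 30 bases before it. Top2a, Bub1b, Ccnb2 and Cdk1, which are among these 12, also had matches farther before the start. Mki67 had its matches at bases 116 and 98 before the start. The same count was not made for other genes. The distance of 30 bases was chosen after the positions were seen. The G1/S regulators E2f1 and Ccne1 held none of the words.

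**Figure D5:**
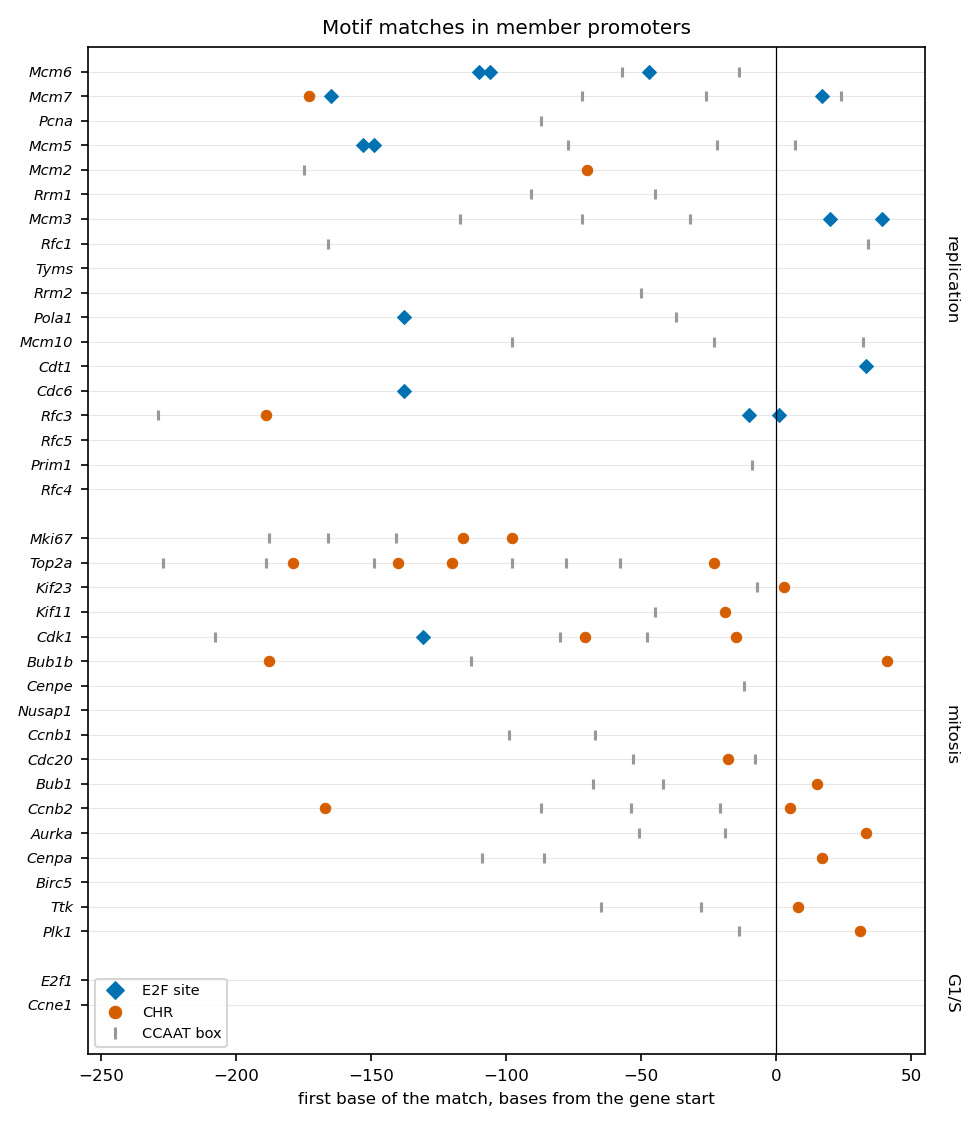
Position of each match relative to the gene start (bases, first base of the match) in the promoter windows of the 37 members that have one, with genes of each set ordered by mean CPM and Plk1, which has no level here, at the end of its set. For Mcm7 only the window printed below is plotted, and a CCAAT match in its other window is not shown. Of the 13 mitosis genes with a CHR match (circles), 12 have one after the start or within the 30 bases before it. E2F matches (diamonds) lie in 8 replication genes and in Cdk1.

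The other genes of each pathway were divided in the same direction, less sharply for E2F. E2F words were found in 15 of 43 other replication genes (34.9%) and 6 of 46 other mitosis genes (13.04%), against 4.87% of expressed genes. CHR words were found in 7 of the 43 (16.3%) and 34 of the 46 (73.9%), against 16.0%. CCAAT was found in 23 (53.5%) and 33 (71.7%), against 43.4%. Of the 14 regulators with a window, 6 held an E2F word and 6 a CHR word, against the same 4.87% and 16.0%.

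Promoters of some members are printed here to show where the matches lie. They are the 3 highest replication and the 3 highest mitosis genes among those with a window that holds any of the words. In each set the highest gene whose window holds no word follows. Because holding a word was part of the choice, these promoters do not show how common the words are. Each stretch is the 250 bases before the start, read 5′ to 3′ along the gene, from RefSeq GRCm38.p6, and capitals mark matches on either strand, so that ATTGG is a CCAAT box on the opposite strand. Among replication genes, Mcm6 (chr1:128359706-128359955, minus strand) shows a fused pair of E2F words, a further E2F word nearer the start and CCAAT boxes, and Mcm7 (chr5:138171884-138172133, minus strand) shows a CHR word, an E2F word and CCAAT boxes. Pcna (chr2:132253181-132253430, minus strand) shows a CCAAT box, and Tyms (chr5:30073626-30073875, minus strand) shows none of the words.
Mcm6: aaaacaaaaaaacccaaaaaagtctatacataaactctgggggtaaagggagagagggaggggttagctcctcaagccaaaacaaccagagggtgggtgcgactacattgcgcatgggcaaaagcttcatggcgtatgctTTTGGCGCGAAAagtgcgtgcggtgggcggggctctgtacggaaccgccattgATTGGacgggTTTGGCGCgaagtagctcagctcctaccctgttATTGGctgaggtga
Mcm7: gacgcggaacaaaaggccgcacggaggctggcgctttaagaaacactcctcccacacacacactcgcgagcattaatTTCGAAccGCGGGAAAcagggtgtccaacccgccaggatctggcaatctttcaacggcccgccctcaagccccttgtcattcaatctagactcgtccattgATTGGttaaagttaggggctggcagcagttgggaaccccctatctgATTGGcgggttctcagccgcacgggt
Pcna: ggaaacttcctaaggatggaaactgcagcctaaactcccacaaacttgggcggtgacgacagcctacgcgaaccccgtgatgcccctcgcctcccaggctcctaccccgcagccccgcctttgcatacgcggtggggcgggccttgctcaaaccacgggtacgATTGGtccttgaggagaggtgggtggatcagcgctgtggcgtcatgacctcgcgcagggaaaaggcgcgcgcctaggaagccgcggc
Tyms: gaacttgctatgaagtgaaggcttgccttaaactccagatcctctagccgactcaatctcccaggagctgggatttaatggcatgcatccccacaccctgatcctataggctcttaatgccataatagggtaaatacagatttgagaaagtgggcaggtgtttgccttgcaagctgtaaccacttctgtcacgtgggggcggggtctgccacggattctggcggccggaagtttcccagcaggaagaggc

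Among mitosis genes, Mki67 (chr7:135716380-135716629, minus strand) shows 3 CCAAT boxes followed by a pair of CHR words, and Top2a (chr11:99024190-99024439, minus strand) shows 6 CCAAT boxes and 4 CHR words. Kif23 (chr9:61946800-61947049, minus strand) shows a CCAAT box next to the start, and its CHR word begins at base 3 after the start, beyond the stretch printed. Nusap1 (chr2:119618048-119618297, plus strand) shows none of the words.
Mki67: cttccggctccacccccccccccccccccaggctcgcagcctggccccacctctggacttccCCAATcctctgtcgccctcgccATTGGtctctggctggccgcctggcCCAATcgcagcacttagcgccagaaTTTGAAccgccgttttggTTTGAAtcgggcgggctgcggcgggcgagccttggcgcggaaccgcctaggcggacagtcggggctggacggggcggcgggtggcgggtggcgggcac
Top2a: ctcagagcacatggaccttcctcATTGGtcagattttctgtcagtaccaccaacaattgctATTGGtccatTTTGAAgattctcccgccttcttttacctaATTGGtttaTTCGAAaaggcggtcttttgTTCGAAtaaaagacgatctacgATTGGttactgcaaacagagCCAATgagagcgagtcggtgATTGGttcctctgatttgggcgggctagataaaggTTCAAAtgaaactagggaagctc
Kif23: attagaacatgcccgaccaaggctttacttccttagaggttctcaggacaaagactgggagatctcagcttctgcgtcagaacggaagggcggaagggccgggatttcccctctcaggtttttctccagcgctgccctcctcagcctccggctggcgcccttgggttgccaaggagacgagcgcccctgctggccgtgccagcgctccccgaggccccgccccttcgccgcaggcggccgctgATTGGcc
Nusap1: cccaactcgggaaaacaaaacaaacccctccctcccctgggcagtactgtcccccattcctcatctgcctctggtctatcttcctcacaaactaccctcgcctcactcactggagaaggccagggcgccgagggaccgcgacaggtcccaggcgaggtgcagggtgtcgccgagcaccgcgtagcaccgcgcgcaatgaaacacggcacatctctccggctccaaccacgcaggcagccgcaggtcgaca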

How the data were processed

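RNA-seq was measured in 3 libraries of 1 group. The deposited table holds a score per gene and library, the square root of a scaled expected count, per the file headers. Per the submitters' processing notes the authors used CASAVA 1.8.2, Bowtie 0.12.7 and RSEM 1.2.0 with mm9. The gene annotation is not given in the sources used here. The authors' scaling was taken to set each library's 75th percentile of squared scores, over the rows detected somewhere, to 1. Expected counts come in steps of 1 in 100 of a read, so the smallest step gave back each library's total (100% of squares were whole steps, within 0.05 of a step). Squares were divided by the column total to give CPM. Of 28427 rows 426 repeated another row exactly, and the row of highest mean was kept for a symbol.

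A comparison per transcript length had been planned, and no lengths were at hand, so set levels are in reads. Genes could not be placed on mm9, so DNase and H3K27ac lists were not used here. The library kit is not stated to mark strand, and the spans of 10 members (Mcm7, Rfc4, Pola1, Gins2, Ccna2, Aurka, Cdc20, Nusap1, Foxm1 and E2f1) overlap another gene in GRCm38.p6, whose reads may not be told apart. Members and lists were chosen with earlier results of these data known. All members are named, and of the other replication genes, the other mitosis genes and the E2F, RB and DREAM genes the 3 highest and 3 lowest by mean CPM. Marker lists are given as counts and sums, and the markers named from them were chosen after their values were seen. Code (Python 3.11.15, pandas 2.3.3) was tested on simulated data. Alternatives covered scaling, pseudocount, membership of the sets, thresholds, the promoter window and leaving out each library.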

Additional observations from a re-analysis of the deposited data

How the results depend on the processing

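Of 46 alternative values, 42 stayed within the spread of the 3 libraries, within 1.5 times the count or within the exact binomial interval of the share. Part of that count was fixed in advance. Leaving 1 library out of 3 cannot move a mean by as much as the SD of the 3. A change of scaling nearly cancels in the difference between replication and mitosis genes. Such values do not test stability. The difference in median reads between replication and mitosis genes kept its sign throughout. It was -0.82 with Ccne1 and E2f1 counted as replication genes, -0.50 with Ccna2 counted there and -0.56 without Mki67 and Top2a, and between -0.75 and -0.63 when 1 library was left out. With matches taken only in the last 150 bases of the window, the E2F share was 27.8% (5 genes) in replication and 0% in mitosis genes. In the same stretch it was 2.60% of expressed genes and 1.45% of all genes. The CHR share there was 5.56% (1 gene) in replication and 76.5% in mitosis genes, against 6.53% of expressed genes and 9.87% of all genes. Leaving out the division by length is already the value reported, and windows and scores for peaks at promoters were not run. All 45 members stayed expressed when any library was left out, which was bound to happen because all 45 passed in all 3. Under both other scalings 33 remained the count of members lowest in library 2, an alternative chosen after seeing the data. In library 2, 37 members were lower than in library 1 and 37 lower than in library 3. Neither of these numbers could fall below 33. No paired analysis was possible because the RNA libraries form a single group. The 3 pools limit every statement to their own spread, and with promoter windows for 18 and 17 genes a single gene moves a share by several percentage points.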
